A study of Mus musculus with 24 samples.

Results

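The hepatocyte identity factors are the transcription factors that hold the gene expression program of the main liver cell. The 9 examined here were Hnf4a, Foxa1, Foxa2, Foxa3, Cebpa, Cebpb, Onecut1, Nr5a2 and Prox1, taken by symbol from a liver RNA-seq count table. All 9 were found among the 23240 rows of the table, and all 9 passed the low-count filter that left 13773 genes for testing.

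HNF4A is a nuclear receptor that activates a large share of hepatocyte genes, and the FOXA proteins are forkhead factors that open chromatin at liver enhancers. C/EBP alpha and C/EBP beta are basic leucine zipper factors that bind the same kind of site: C/EBP alpha is linked to the quiescent, metabolic hepatocyte, and C/EBP beta to regeneration and the acute phase response. ONECUT1 (HNF6), NR5A2 (LRH-1) and PROX1 complete the set, and these factors bind each other's regulatory regions and act together at many liver enhancers.

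The livers came from female NSG mice, an immunodeficient strain without mature T, B and NK cells, so every group shared that background. The labels give an age of 8 weeks. Extracellular vesicles (EVs, membrane particles that cells release) were injected through the tail vein, 2 injections a week over 5 weeks at about 10 µg each, and the liver was collected 2 days after the last one. The vesicles were labelled as coming from MDA-MB-231, a human breast cancer line, from MCF10A/miR-122, which joins MCF10A to the liver-rich microRNA miR-122 in a way the labels do not describe, or from MCF10A, a non-tumorigenic human breast epithelial line. Mice given phosphate-buffered saline (PBS) were the vehicle group. Each group had 6 libraries, and each library was counted as a mouse of its own, which the labels leave unsaid. If some shared an animal, the p-values measure technical spread only.

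Library names contradict the labels of 12 libraries: the names of those labelled MDA-MB-231 EV refer to miR-122, and the names of those labelled MCF10A/miR-122 EV refer to the MDA-MB-231 line. Both groups are called by their labels here. The 24 libraries were also split by treatment group, which follows the library numbers, into 2 sets. Totals were 26.8 to 33.7 M (mega) counts in the 12 MDA-MB-231 EV and MCF10A/miR-122 EV libraries. They were 21.3 to 29.3 M in the 12 MCF10A EV and PBS libraries, so the totals overlapped. On the first principal component the sets lay at 8.89 to 30.8 and at -27.1 to -8.10, without overlap. In the 4 comparisons that cross the sets, set and treatment cannot be told apart. Hepatocyte markers were high in every library (Alb, the albumin gene, had 1666630 to 3228447 counts). The tissue is bulk liver, so fewer cells of a type and less RNA per cell cannot be told apart.

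Levels are given as CPM, read counts scaled to library size by the TMM method, as mean ± SD with n = 6 libraries a group. Between genes they are compared only as CPM per kb of annotated exon. On that scale Cebpa and Hnf4a led, with 112.9 ± 18.5 and 109.4 ± 16.1 CPM per kb over the 24 libraries. Their order was not resolved: Cebpa was higher in 13 of 24 libraries, and with the exons of the basic annotation set Hnf4a came first. Cebpb followed with 44.5 ± 21.4 CPM per kb and lay below Hnf4a in 24 of 24 libraries.

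Among the forkhead genes Foxa3 averaged 18.6 ± 3.79 CPM per kb over the 24 libraries and Foxa2 11.7 ± 4.90. Foxa3 was above Foxa2 in 21 of 24 libraries, and the exceptions were MCF10A EV replicates 1, 2 and 5. In that group the order of the means turned, with 17.5 ± 5.33 CPM per kb of Foxa2 and 16.7 ± 4.22 of Foxa3 (SD, n = 6), so the 2 are not ordered there. Foxa1 had 4.73 ± 0.972 CPM per kb. It could not be ordered against Prox1, at 4.79 ± 1.14, which was higher in 12 of 24 libraries. Nr5a2 lay between Foxa2 and Prox1 at 6.14 ± 0.917 CPM per kb, and Onecut1 was lowest at 2.67 ± 1.89. Onecut1 shares 33.1% of its 32-base words with other genes, and an annotated noncoding gene overlaps 2171 of its bases on the same strand, so its level is uncertain.

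**Figure D1:**
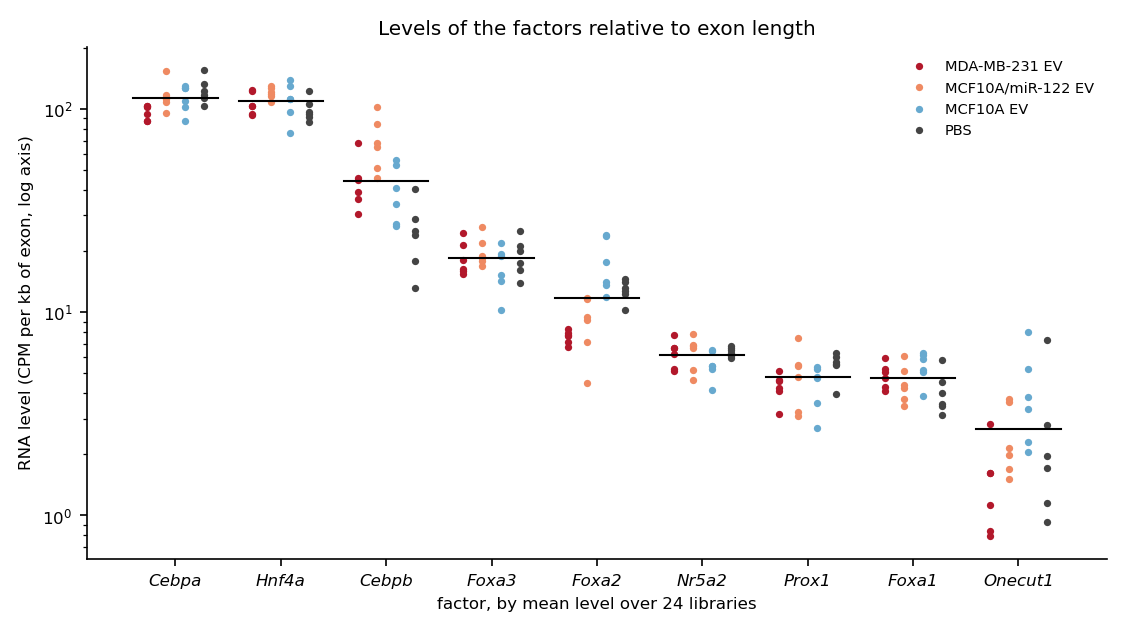
RNA level of each factor in CPM per kb of exon (log axis), 1 point per library, coloured by treatment label, with a bar at the mean of the 24 libraries. Cebpa and Hnf4a average 112.9 and 109.4 CPM per kb and Onecut1 2.67, and the spread of Onecut1 and Cebpb is wide.

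The factors differed in how much they varied between livers of the same group. The within-group SD of Onecut1 was 0.78 on the log2 CPM scale, at the 98.3 percentile of all genes tested, and that of Cebpb was 0.47, at the 89.2 percentile. The SD of Hnf4a was 0.21 and that of Cebpa 0.20, close to the all-gene median of 0.21. A fold change of a given size is therefore detected more easily for Hnf4a and Cebpa than for Onecut1.

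Over the 6 pairwise comparisons of the 4 groups, 9 of 54 tests of a factor passed an adjusted p of 0.05 in edgeR's quasi-likelihood test with Benjamini-Hochberg adjustment over all genes tested. They fell on 4 factors: Foxa2 in 4 comparisons, Cebpb in 3, and Cebpa and Onecut1 in 1 each. Foxa2, Onecut1 and Cebpa fell and Cebpb rose, and each of these tests compared libraries of different sets. Among all genes tested, between 0.254% and 17.9% passed in a single comparison, as given below for each. The comparisons share groups, so their counts are not independent of each other.

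**Figure D2:**
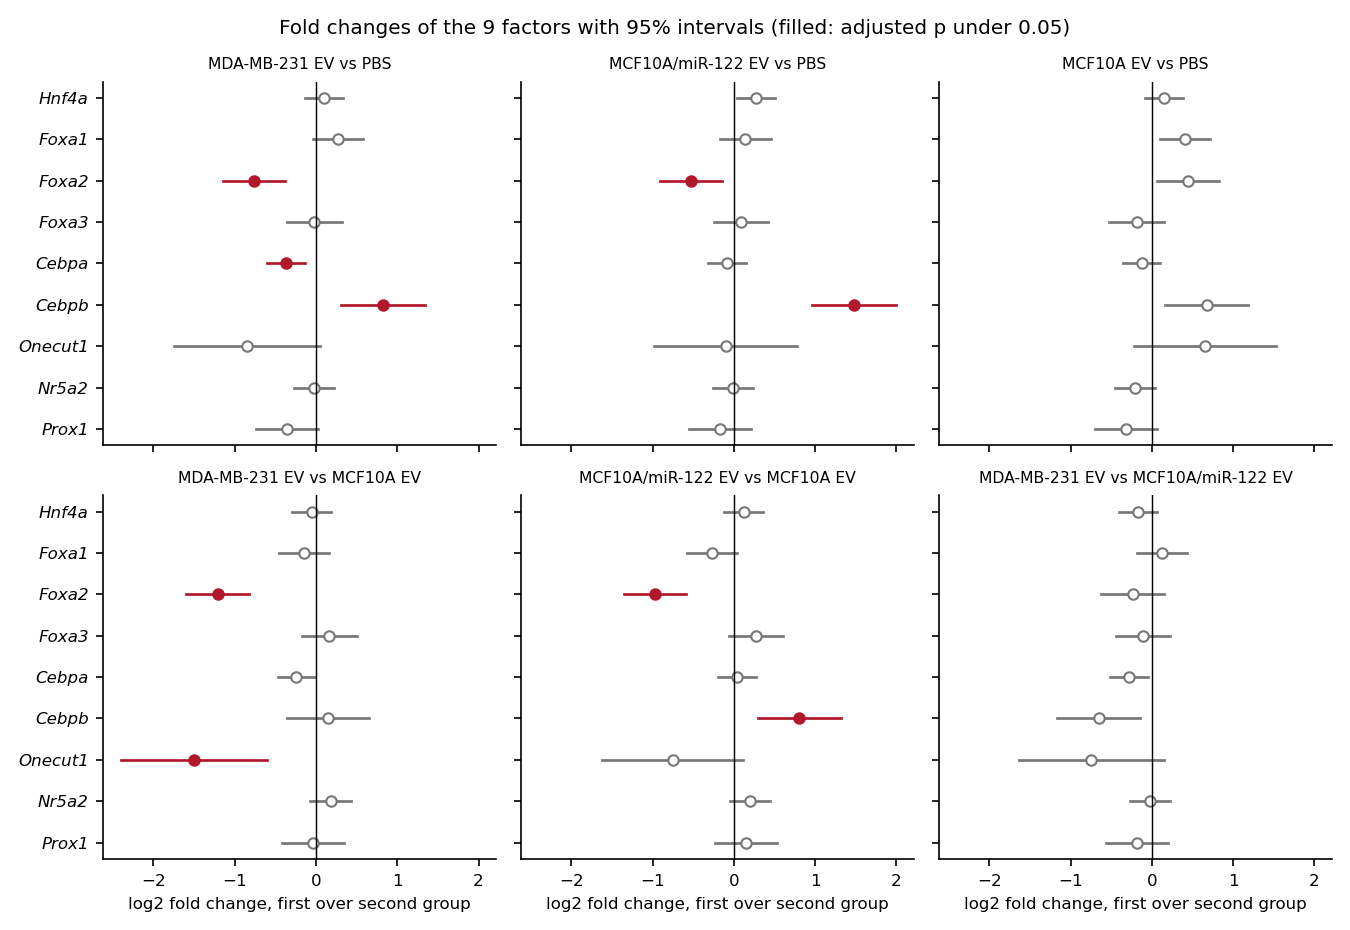
Log2 fold changes (first named group over second) of the 9 factors in the 6 comparisons, with 95% intervals; filled points passed an adjusted p of 0.05. Foxa2 is lower in 4 panels, down to -1.21, and Cebpb is higher in 3, up to 1.48.

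In livers given MDA-MB-231 EVs, 3 of the 9 factors differed from PBS: Foxa2 and Cebpa were lower and Cebpb was higher. Among all genes tested 11.7% passed in this comparison, 5.33% higher and 6.34% lower (734 and 873 genes, or 591 and 1135 with upper quartile scaling). The median log2 fold change of the factors was -0.03, and that of all genes was 0.0035. In livers given MCF10A/miR-122 EVs, 2 of 9 passed against PBS, Foxa2 lower and Cebpb higher, where 17.9% of all genes passed, 8.35% higher and 9.53% lower (1150 and 1313 genes, or 878 and 1647 with upper quartile scaling). The medians there were -0.0091 for the factors and 0.0010 for all genes.

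Against MCF10A EVs, 2 of 9 factors passed in MDA-MB-231 EV livers, Foxa2 and Onecut1, both lower, beside 7.68% of all genes, 3.24% higher and 4.44% lower. The medians were -0.05 for the factors and -0.00018 for all genes. In MCF10A/miR-122 EV livers 2 of 9 passed against MCF10A EVs, Foxa2 lower and Cebpb higher, beside 16.2% of all genes, 7.53% higher and 8.71% lower, with medians of 0.12 and -0.0039.

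In the comparisons within a set, no factor passed in edgeR's quasi-likelihood test. Between MDA-MB-231 EV and MCF10A/miR-122 EV livers 0.254% of all genes passed, and 2 of 9 factors (Cebpa and Cebpb) and 1128 of all genes had an unadjusted p under 0.05. Between MCF10A EV and PBS livers 1.07% of all genes passed, and 3 of 9 factors (Foxa1, Foxa2 and Cebpb) and 2383 of all genes had an unadjusted p under 0.05. DESeq2 and limma-voom also called none of the 9 in either comparison. The medians of the factors and of all genes were -0.19 and 0.0017 in the first of these comparisons, and 0.15 and 0.0077 in the second. Asked for any difference among the 4 groups, the test passed for 2 of 9 factors, Foxa2 (adjusted p = 1.54e-04) and Cebpb (adjusted p = 0.00118), beside 21.4% of all genes.

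**Figure D3:**
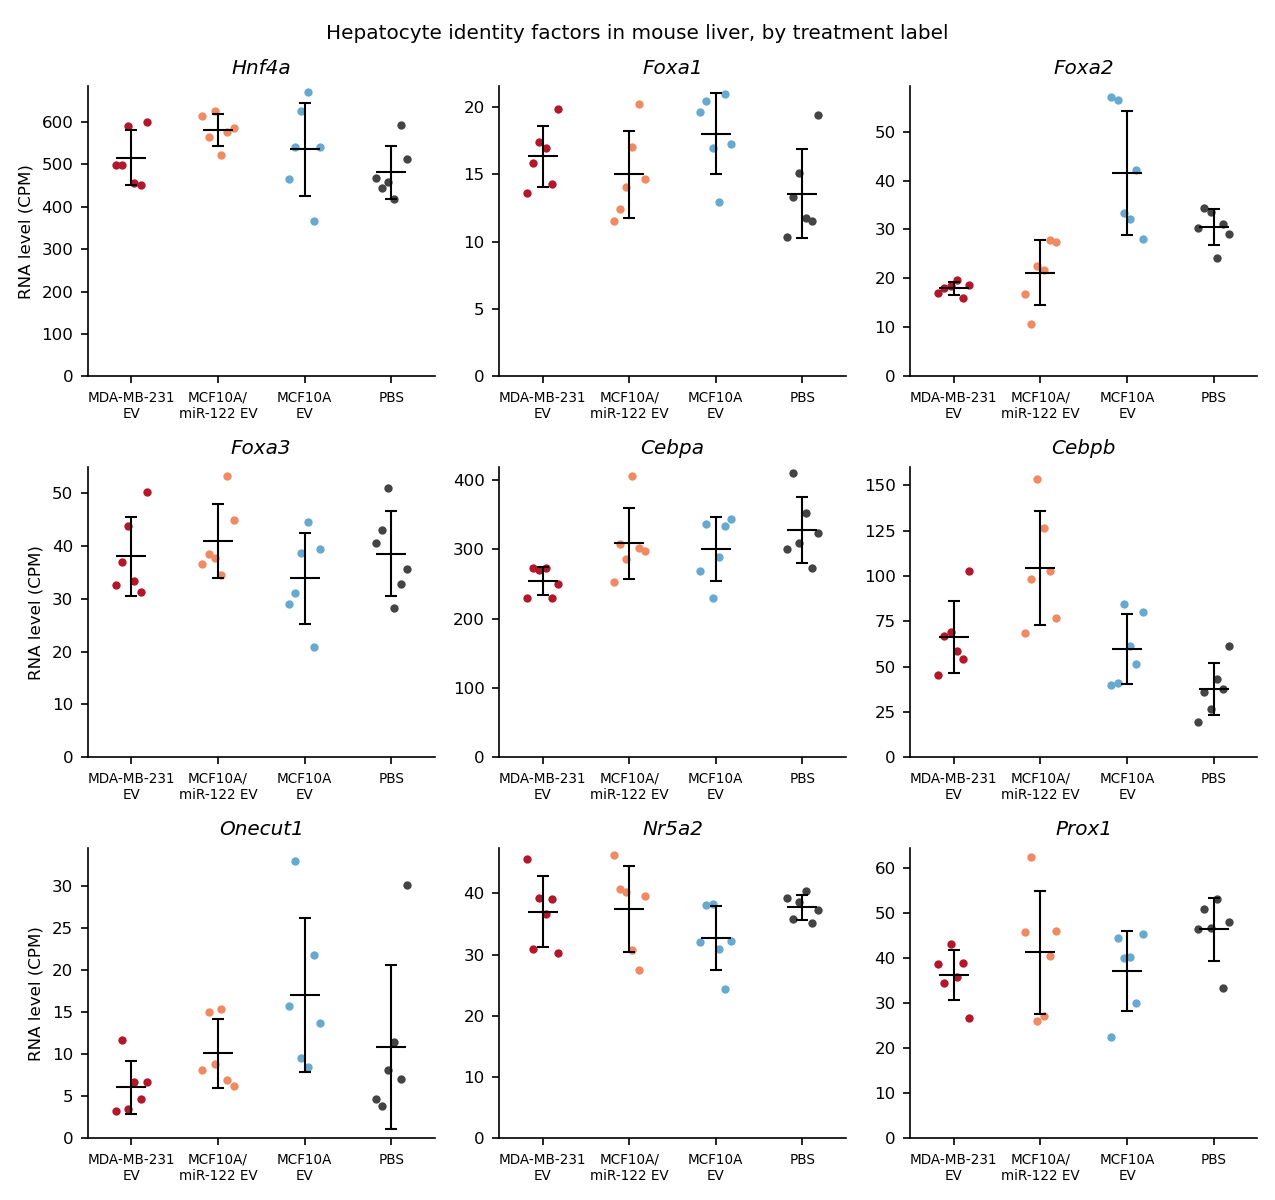
RNA level (CPM) of each factor in each library by treatment label, 6 libraries a group, with the mean and SD as bars. Foxa2 lies at 15.9 to 19.7 CPM in MDA-MB-231 EV livers and at 24.3 to 34.4 CPM in PBS livers, and a single PBS library of Onecut1 stands at 30.0 CPM.

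Foxa2 encodes the forkhead protein that, besides opening liver enhancers, is tied to fasting metabolism and bile acid handling. The lowest, median and highest libraries were at 15.9, 18.2 and 19.7 CPM with MDA-MB-231 EVs, 10.6, 22.2 and 27.8 CPM with MCF10A/miR-122 EVs, 28.1, 37.7 and 57.0 CPM with MCF10A EVs, and 24.3, 30.8 and 34.4 CPM with PBS. Every MDA-MB-231 EV liver was thus below every PBS and every MCF10A EV liver. The MCF10A/miR-122 EV livers were all below the MCF10A EV livers and overlapped the PBS livers. Groups that do not overlap were found for 6.22% of all genes in the first of these comparisons, 5.05% in the second and 5.63% in the third.

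With MDA-MB-231 EVs the mean of Foxa2 was 18.0 ± 1.34 CPM, against 30.5 ± 3.63 CPM with PBS (log2 fold change -0.76, SE 0.19, adjusted p = 0.00908 in edgeR's quasi-likelihood test). Against the 41.5 ± 12.6 CPM of MCF10A EV livers the log2 fold change was -1.21 (SE 0.19, adjusted p = 1.65e-04), a level 2.31-fold lower. With MCF10A/miR-122 EVs Foxa2 averaged 21.2 ± 6.58 CPM, a log2 fold change of -0.97 from MCF10A EVs (SE 0.19, adjusted p = 8.14e-04). Each of these 3 calls was kept when any 1 of the 24 libraries was left out.

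The fall of Foxa2 with MCF10A/miR-122 EVs against PBS was less firm, at -0.53 (SE 0.18, adjusted p = 0.04998). The call was also lost with the replicate block (adjusted p = 0.0815), with only the 2 groups compared (0.0774), without a low-count filter (0.0551) and with RLE scaling (0.0503), at log2 fold changes of -0.52 to -0.53. It was kept in 8 of 24 fits that left out a library, with adjusted p between 0.0304 and 0.0926. It was lost without PBS replicate 1, 2, 3, 5 or 6, MCF10A EV replicate 5, MCF10A/miR-122 EV replicate 1, 2, 3 or 4, or any MDA-MB-231 EV replicate. Between MCF10A EVs and PBS Foxa2 had a log2 fold change of 0.45 (95% interval 0.07 to 0.82, adjusted p = 0.211), and between MDA-MB-231 EVs and MCF10A/miR-122 EVs -0.24 (95% interval -0.62 to 0.15, adjusted p = 0.814). Bile duct cells also express Foxa2. The summed level of 7 cholangiocyte markers was 44.1 to 57.4 CPM with MDA-MB-231 EVs, 37.8 to 48.2 CPM with MCF10A/miR-122 EVs, 31.1 to 59.0 CPM with MCF10A EVs and 45.9 to 67.7 CPM in PBS livers. Spp1 alone averaged 40.0 CPM over the 24 libraries and made up most of that sum, which says little of the other members. No marker in that list was at 0 in every library of a group. Of its 6 tested members Sox9 alone passed, lower with MCF10A/miR-122 EVs than with MCF10A EVs (-1.05, adjusted p = 0.0114). In that comparison 16.2% of all genes passed, 8.71% lower, so among 6 genes a count of 1 is close to those shares. Sox9 averaged 3.83 CPM with MDA-MB-231 EVs, 3.35 with MCF10A/miR-122 EVs, 6.97 with MCF10A EVs and 4.27 with PBS. With MDA-MB-231 EVs against MCF10A EVs Sox9 was at -0.86 (adjusted p = 0.0574 in edgeR's quasi-likelihood test), while the 6 tested members had a median of 0.14. With MCF10A/miR-122 EVs against MCF10A EVs their median was -0.11. Over PBS their medians were 0.08 with MDA-MB-231 EVs and -0.30 with MCF10A/miR-122 EVs. The part of bile duct cells in the Foxa2 result was not tested.

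The Foxa2 window of 250 bases before to 50 after the gene start is shown because the gene fell in 4 comparisons and because its letters include TATTGATT, a sequence ONECUT factors bind. The motif (either strand) occurs in 0.755% of the 32851 such windows in RefSeq (GRCm38.p6), and, among the 14 windows of the 9 factors, in those of Foxa2 and Hnf4a. The window lies on the minus strand at chr2:148046920-148047219, and capitals mark the motif. It overlaps none of the other motifs searched. The windows and motifs were chosen after values and sequences were seen, and a match is a description of letters, not of binding.
Foxa2: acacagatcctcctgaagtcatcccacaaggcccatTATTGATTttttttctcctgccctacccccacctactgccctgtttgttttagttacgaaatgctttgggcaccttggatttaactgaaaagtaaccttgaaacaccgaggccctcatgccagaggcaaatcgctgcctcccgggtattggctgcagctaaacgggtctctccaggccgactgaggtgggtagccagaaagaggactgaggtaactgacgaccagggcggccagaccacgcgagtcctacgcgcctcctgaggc

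Onecut1, the gene of the factor whose motif those letters spell, varied most within groups. Its lowest, median and highest libraries were at 3.27, 5.63 and 11.6 CPM with MDA-MB-231 EVs, 6.21, 8.52 and 15.4 CPM with MCF10A/miR-122 EVs, 8.42, 14.7 and 32.9 CPM with MCF10A EVs, and 3.82, 7.54 and 30.0 CPM with PBS. The MDA-MB-231 EV livers were lowest as a group, and all groups overlapped. Onecut1 averaged 6.05 ± 3.11 CPM with MDA-MB-231 EVs, against 17.0 ± 9.14 CPM with MCF10A EVs (log2 fold change -1.50, SE 0.43, adjusted p = 0.034 in edgeR's quasi-likelihood test), and all 6 MDA-MB-231 EV libraries were below the MCF10A EV median. That call was kept in 16 of 24 fits without a library, and was lost without MCF10A EV replicate 1, 2 or 5 or without MDA-MB-231 EV replicate 1, 3, 4, 5 or 6.

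A single PBS liver, replicate 6, held 30.0 CPM of Onecut1, while the next highest PBS library held 11.5 CPM. Without it the log2 fold change of MCF10A EVs over PBS was 1.27 (adjusted p = 0.088), against 0.65 with it. That of MDA-MB-231 EVs over PBS was -0.23 (adjusted p = 0.747), against -0.85 with it, and that of MCF10A/miR-122 EVs over PBS was 0.52 (adjusted p = 0.356), against -0.10 with it. None of the 3 passed either way.

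The Onecut1 window is shown because it holds CACGTG, the E-box of the circadian CLOCK and ARNTL pair. The motif reads the same on both strands and occurs in 7.15% of all windows. Among the 14 windows of the 9 factors it occurs in this 1 only, which is close to that share. The part of the motif in the Onecut1 values was not tested. The window lies on the plus strand at chr9:74861671-74861970, with the E-box in capitals, and no other searched motif overlaps it.
Onecut1: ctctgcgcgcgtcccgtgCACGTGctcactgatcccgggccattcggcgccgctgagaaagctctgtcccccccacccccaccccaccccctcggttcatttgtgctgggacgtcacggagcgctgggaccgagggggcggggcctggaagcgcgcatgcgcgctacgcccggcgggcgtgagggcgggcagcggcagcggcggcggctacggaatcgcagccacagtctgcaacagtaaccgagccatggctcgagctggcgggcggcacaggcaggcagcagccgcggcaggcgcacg

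Cebpb was the factor that rose. Its lowest, median and highest libraries were at 45.6, 62.9 and 102.8 CPM with MDA-MB-231 EVs, 68.8, 100.4 and 153.4 CPM with MCF10A/miR-122 EVs, 40.1, 56.3 and 84.8 CPM with MCF10A EVs, and 19.7, 36.9 and 61.1 CPM with PBS. The MCF10A/miR-122 EV livers were highest and did not overlap the PBS livers, as was found for 5.88% of all genes. The other groups overlapped each other.

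With MCF10A/miR-122 EVs Cebpb averaged 104.4 ± 31.5 CPM, against 37.5 ± 14.3 CPM with PBS, 2.79-fold higher (log2 fold change 1.48, SE 0.25, adjusted p = 2.64e-04 in edgeR's quasi-likelihood test), and this call was kept in 24 of 24 fits without a library. Against the 59.8 ± 19.2 CPM of MCF10A EV livers the log2 fold change was 0.80 (SE 0.25, adjusted p = 0.0275), kept in 20 of 24 and lost without MCF10A EV replicate 1, 2 or 5 or MCF10A/miR-122 EV replicate 3. With MDA-MB-231 EVs Cebpb averaged 66.3 ± 19.9 CPM, a log2 fold change of 0.82 over PBS (SE 0.25, adjusted p = 0.0315), kept in 18 of 24 and lost without PBS replicate 1, 2 or 3 or MDA-MB-231 EV replicate 2, 3 or 6.

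MCF10A EVs gave a log2 fold change of Cebpb over PBS of 0.67 (95% interval 0.16 to 1.19, adjusted p = 0.171). MDA-MB-231 EVs gave -0.65 against MCF10A/miR-122 EVs (95% interval -1.16 to -0.15, adjusted p = 0.414). Neither passed after adjustment over all genes.

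Cebpb is also expressed in macrophages, and macrophage markers rose beside it with MCF10A/miR-122 EVs but not with the other EVs. Of 9 markers tested 6 rose with MCF10A/miR-122 EVs against PBS, beside 8.35% of all genes higher, and 7 rose against MCF10A EVs, beside 7.53%. With MDA-MB-231 EVs 3 fell against MCF10A/miR-122 EVs, where 0.254% of all genes passed in either direction. Their summed level was 184 to 283 CPM with MDA-MB-231 EVs, 243 to 591 CPM with MCF10A/miR-122 EVs, 204 to 257 CPM with MCF10A EVs and 222 to 285 CPM in PBS livers, and no marker was at 0 in every library of a group. Vsig4, a Kupffer cell complement receptor gene, had a log2 fold change of 0.62 with MCF10A/miR-122 EVs over PBS (adjusted p = 0.00307). With MDA-MB-231 EVs none of the 9 passed against PBS, beside 11.7% of all genes. Their median was 0.06 and Vsig4 was at -0.04, where Cebpb was at 0.82. With MCF10A EVs none passed against PBS either, beside 1.07% of all genes. Their median was -0.14, where Cebpb was at 0.67. The part of macrophages in the Cebpb result was not tested. The Cebpb gene overlaps Tmem189 on the opposite strand over 312 bases, and the strand setting of the counting is not given. Tmem189 passed in none of the 6 comparisons.

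The Cebpb window is shown because it holds TGACG, the cyclic AMP response element half-site, at 3 places, read on either strand (CGTCA is its reverse complement). At least 1 match occurs in 20.8% of all windows and at least 2 in 5.01%. Foxa2 and Onecut1 have 1 each. The window lies on the plus strand at chr2:167688665-167688964, with the matches in capitals, and no other searched motif overlaps them.
Cebpb: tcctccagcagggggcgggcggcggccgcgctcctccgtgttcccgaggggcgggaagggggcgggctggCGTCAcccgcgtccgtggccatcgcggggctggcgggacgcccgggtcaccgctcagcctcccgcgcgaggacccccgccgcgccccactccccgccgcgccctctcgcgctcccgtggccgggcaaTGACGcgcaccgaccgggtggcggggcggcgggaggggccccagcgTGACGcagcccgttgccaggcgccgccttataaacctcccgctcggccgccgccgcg

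Cebpa, the partner gene of the quiescent hepatocyte, was lower with MDA-MB-231 EVs. Its lowest, median and highest libraries were at 230.1, 259.3 and 272.7 CPM with MDA-MB-231 EVs, 253.3, 298.9 and 405.5 CPM with MCF10A/miR-122 EVs, 229.3, 311.1 and 343.8 CPM with MCF10A EVs, and 272.4, 316.0 and 409.4 CPM with PBS. All 6 MDA-MB-231 EV libraries were below the PBS median, and the 2 groups touched, with a highest value of 272.7 CPM in the MDA-MB-231 EV livers and a lowest of 272.4 CPM in the PBS livers. The means were 254 ± 20.4 CPM with MDA-MB-231 EVs and 328 ± 47.9 CPM in PBS livers, a 1.29-fold lower level (log2 fold change -0.37, SE 0.11, adjusted p = 0.033 in edgeR's quasi-likelihood test). The call was kept in 19 of 24 fits without a library and was lost without PBS replicate 2 or 4 or MDA-MB-231 EV replicate 1, 5 or 6.

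Cebpa had a log2 fold change of -0.24 with MDA-MB-231 EVs against MCF10A EVs (adjusted p = 0.201) and of -0.28 against MCF10A/miR-122 EVs (adjusted p = 0.452). With MCF10A/miR-122 EVs and with MCF10A EVs it was at -0.09 and -0.13 against PBS. In the same MDA-MB-231 EV livers Cebpb was higher than with PBS, so the 2 C/EBP genes passed in opposite directions in that comparison.

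Hnf4a, the nuclear receptor at the head of the set, passed in no comparison. Its lowest, median and highest libraries were at 451.6, 498.4 and 599.2 CPM with MDA-MB-231 EVs, 522.1, 581.0 and 626.0 CPM with MCF10A/miR-122 EVs, 366.4, 541.2 and 669.5 CPM with MCF10A EVs, and 417.6, 462.4 and 592.5 CPM with PBS. All groups overlapped. Its log2 fold changes ran between -0.17 and 0.27 over the 6 comparisons, and the 95% intervals between -0.41 and 0.51. The largest, 0.27 with MCF10A/miR-122 EVs over PBS (adjusted p = 0.104 in edgeR's quasi-likelihood test), passed without PBS replicate 5 (0.34, adjusted p = 0.0438). The antisense gene 0610008F07Rik (Hnf4aos in RefSeq) had a log2 fold change of 0.68 with MCF10A/miR-122 EVs over MCF10A EVs (adjusted p = 0.0374). In the annotation used for exon lengths, no exon of another gene overlapped those of Hnf4a on either strand. The annotation and strand setting of the counting are not given, so sharing of reads in the counts was not tested.

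Foxa1 and Foxa3, the other 2 forkhead genes, passed in no comparison either. Foxa1 was at 16.3 ± 2.26 CPM with MDA-MB-231 EVs, 15.0 ± 3.21 CPM with MCF10A/miR-122 EVs, 18.0 ± 2.998 CPM with MCF10A EVs and 13.6 ± 3.28 CPM in PBS livers. Its log2 fold changes ran between -0.27 and 0.41 with 95% intervals between -0.58 and 0.72. Foxa3 was at 38.0 ± 7.46 CPM with MDA-MB-231 EVs, 40.9 ± 6.999 CPM with MCF10A/miR-122 EVs, 33.9 ± 8.60 CPM with MCF10A EVs and 38.6 ± 8.08 CPM in PBS livers, and its log2 fold changes ran between -0.19 and 0.27 with intervals between -0.52 and 0.61. A fall of Foxa1 or Foxa3 as large as the -1.21 of Foxa2 lay outside these intervals.

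Nr5a2, a nuclear receptor of bile acid and cholesterol genes, was at 37.0 ± 5.79 CPM with MDA-MB-231 EVs, 37.5 ± 7.01 CPM with MCF10A/miR-122 EVs, 32.7 ± 5.21 CPM with MCF10A EVs and 37.8 ± 2.03 CPM in PBS livers. Prox1, a homeodomain corepressor of several nuclear receptors in liver, was at 36.2 ± 5.60 CPM with MDA-MB-231 EVs, 41.2 ± 13.6 CPM with MCF10A/miR-122 EVs, 37.1 ± 8.92 CPM with MCF10A EVs and 46.3 ± 6.91 CPM in PBS livers. The groups overlapped for both genes. The log2 fold changes of Nr5a2 ran between -0.21 and 0.20 (95% intervals between -0.46 and 0.45) and those of Prox1 between -0.35 and 0.15 (between -0.73 and 0.53). Prox1 also marks lymphatic endothelium, and none of the 4 tested lymphatic markers passed in any comparison. Between 0.254% and 17.9% of all genes passed, so among 4 genes a count of 0 is close to those shares. Of these markers Pdpn (0.30 CPM) and Ccl21a (0.89 CPM) were near the floor, and Reln is also a stellate cell marker.

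Deviations of log2 CPM from the group mean were correlated over the 24 libraries for the 36 pairs, and 0 passed with permutation p-values adjusted over the pairs. For Hnf4a and Foxa3 Pearson's r was 0.63 (permutation p = 0.00662, adjusted p = 0.172) and Spearman's rho 0.56 (permutation p = 0.0116, adjusted p = 0.153), and r was 0.39 without the 2 libraries farthest from the Hnf4a median. For Foxa1 and Foxa2 r was 0.53 (permutation p = 0.0143, adjusted p = 0.172) and rho 0.61 (permutation p = 0.00386, adjusted p = 0.139), and r was 0.56 without the 2 farthest libraries. Within the 12 MDA-MB-231 EV and MCF10A/miR-122 EV libraries r was 0.67 for Hnf4a and Foxa3 and 0.65 for Foxa1 and Foxa2. Within the 12 MCF10A EV and PBS libraries it was 0.61 and 0.43 for these pairs.

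Genes outside the set tracked single factors more closely, as a search of 7725 genes by the highest r over the same 24 libraries is built to find. Nr5a2 was closest to Fam168b (r = 0.93), Mob1a and Eif4ebp2, and Hnf4a to Atoh8 (r = 0.88), a bHLH factor gene, Ric8b and Dnajb9. Foxa2 was closest to Phlda1 (r = 0.86), Irf1 and Hars2, and Cebpb to the kinase gene Pim3 (r = 0.86), the stress response gene Ppp1r15a (r = 0.85) and Mtap7d1. For Cebpa the closest were the connexin gene Gjb2 (r = 0.78), the bile acid receptor gene Nr1h4 (r = 0.78) and Cideb, and for Onecut1 Serpina4-ps1 (r = 0.79), Tuft1 and Plcxd2. Foxa1 was closest to Adh7 (r = 0.80), Rgs3 and Il15ra, Foxa3 to Atg2a (r = 0.82), Notch1 and Chd2, and Prox1 to Rev3l (r = 0.80), Vps13c and Ankrd17. These libraries differ in depth and belong to both sets, and the values are descriptions of these livers.

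Other liver transcription factors were followed as a list of 29, of which 28 were tested. With MDA-MB-231 EVs 3 rose and 4 fell against PBS, beside 5.33% of all genes higher and 6.34% lower, and with MCF10A/miR-122 EVs 4 rose and 4 fell, beside 8.35% and 9.53%. Against MCF10A EVs 2 rose and 4 fell with MDA-MB-231 EVs, beside 3.24% and 4.44% of all genes, and 4 rose and 6 fell with MCF10A/miR-122 EVs, beside 7.53% and 8.71%. None passed within a set, where 1.07% and 0.254% of all genes passed, so among 28 genes a count of 0 is close to those shares. The medians of the list lay between -0.05 and 0.07 over the 6 comparisons.

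Among them Gata4, a zinc finger factor of endoderm and liver endothelium, also fell, with log2 fold changes of -0.81 with MDA-MB-231 EVs (adjusted p = 1.65e-04) and -0.72 with MCF10A/miR-122 EVs (adjusted p = 2.64e-04) over PBS. Atf5, a basic leucine zipper gene, was at -0.39 with MDA-MB-231 EVs (adjusted p = 0.0185) and -0.56 with MCF10A/miR-122 EVs (adjusted p = 8.91e-04) over PBS. Klf15, a glucocorticoid-induced factor of amino acid and glucose metabolism, was at 1.00 with MDA-MB-231 EVs (adjusted p = 2.23e-05) and 1.03 with MCF10A/miR-122 EVs (adjusted p = 9.52e-06). Cebpd, an acute phase C/EBP gene, was at 0.77 with MDA-MB-231 EVs (adjusted p = 0.00687) and 1.01 with MCF10A/miR-122 EVs (adjusted p = 4.00e-04).

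Reported targets of the factors were set beside them. Of 10 acute phase genes reported as C/EBP beta targets, 2 rose with MDA-MB-231 EVs against PBS (median 0.33, beside 5.33% of all genes higher), 7 with MCF10A/miR-122 EVs (median 1.10, beside 8.35%) and 2 with MCF10A EVs (median 0.34, beside 1.07% of all genes in either direction). Against MCF10A EVs none rose and 1 fell with MDA-MB-231 EVs (median -0.09, beside 3.24% of all genes higher and 4.44% lower), and 5 rose and 1 fell with MCF10A/miR-122 EVs (median 0.50, beside 7.53% and 8.71%). Between MDA-MB-231 EVs and MCF10A/miR-122 EVs 5 fell (median -0.69), beside 0.254% of all genes in either direction. Lcn2, the lipocalin 2 gene, had log2 fold changes over PBS of 0.42 with MDA-MB-231 EVs (adjusted p = 0.239), 1.92 with MCF10A/miR-122 EVs (adjusted p = 3.64e-06) and 1.23 with MCF10A EVs (adjusted p = 0.0131), the last within a library set. Against MCF10A EVs it was at -0.81 with MDA-MB-231 EVs (adjusted p = 0.027) and 0.69 with MCF10A/miR-122 EVs (adjusted p = 0.0339). The serum amyloid genes Saa1, Saa2 and Saa3 were at 4.39, 4.25 and 4.04 with MCF10A/miR-122 EVs over PBS, and at 0.52, 0.32 and -0.0014 with MDA-MB-231 EVs. Saa1 and Saa2 are near-identical, so their reads may have been split between them.

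Of 8 reported FOXA targets tested, 2 rose with MDA-MB-231 EVs over PBS (median 0.64, beside 5.33% of all genes higher) and 4 rose with MCF10A/miR-122 EVs (median 0.61, beside 8.35%). None fell in either, where 6.34% and 9.53% of all genes fell, so among 8 genes a count of 0 is close to those shares. Tat, the tyrosine aminotransferase gene, was at 1.31 with MDA-MB-231 EVs (adjusted p = 8.79e-04) and 1.56 with MCF10A/miR-122 EVs (adjusted p = 8.45e-05) over PBS. Pck1, the gluconeogenic phosphoenolpyruvate carboxykinase gene, was at 1.27 with MDA-MB-231 EVs (adjusted p = 0.0041) and 1.31 with MCF10A/miR-122 EVs (adjusted p = 0.00211). Against MCF10A EVs 1 of the 8 rose with MDA-MB-231 EVs (median 0.37, beside 3.24%) and 1 with MCF10A/miR-122 EVs (median 0.36, beside 7.53%). The gene was Tat in both comparisons. Pck1 was at 0.58 (adjusted p = 0.209) and 0.62 (adjusted p = 0.128) there in edgeR's quasi-likelihood test. Tat and Pck1 also stand among the 9 reported C/EBP alpha targets. Of these, 3 rose with MDA-MB-231 EVs and 4 with MCF10A/miR-122 EVs over PBS, beside 5.33% and 8.35% of all genes higher. Against MCF10A EVs 2 rose with MDA-MB-231 EVs and 2 with MCF10A/miR-122 EVs.

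Of 15 reported HNF4A targets 1 rose with MDA-MB-231 EVs over PBS, and 1 rose and 1 fell with MCF10A/miR-122 EVs. These counts are close to the shares of all genes over PBS given above. The gene that fell was Cyp8b1, the sterol 12-alpha-hydroxylase of bile acid synthesis, at -1.68 on the log2 scale (adjusted p = 1.24e-04). With MDA-MB-231 EVs over PBS it was at -0.36 (adjusted p = 0.381). Within a set, it was at 1.31 with MDA-MB-231 EVs over MCF10A/miR-122 EVs (adjusted p = 0.0214 in edgeR's quasi-likelihood test). Of the 15 it alone passed there, beside 0.254% of all genes. With MCF10A/miR-122 EVs against MCF10A EVs 3 of the 15 fell, beside 8.71% of all genes. Cyp8b1 is also among the 8 reported NR5A2 targets. Of these, 2 rose and 1 fell with MCF10A/miR-122 EVs over PBS, beside 8.35% of all genes higher and 9.53% lower. The 2 that rose were the sterol transporter genes Abcg5 (0.71, adjusted p = 7.29e-04) and Abcg8 (0.91, adjusted p = 0.00123). Of 6 fetal liver genes, among them Afp and H19, none passed in any comparison. Between 0.254% and 17.9% of all genes passed, so among 6 genes a count of 0 is close to those shares.

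**Figure D4:**
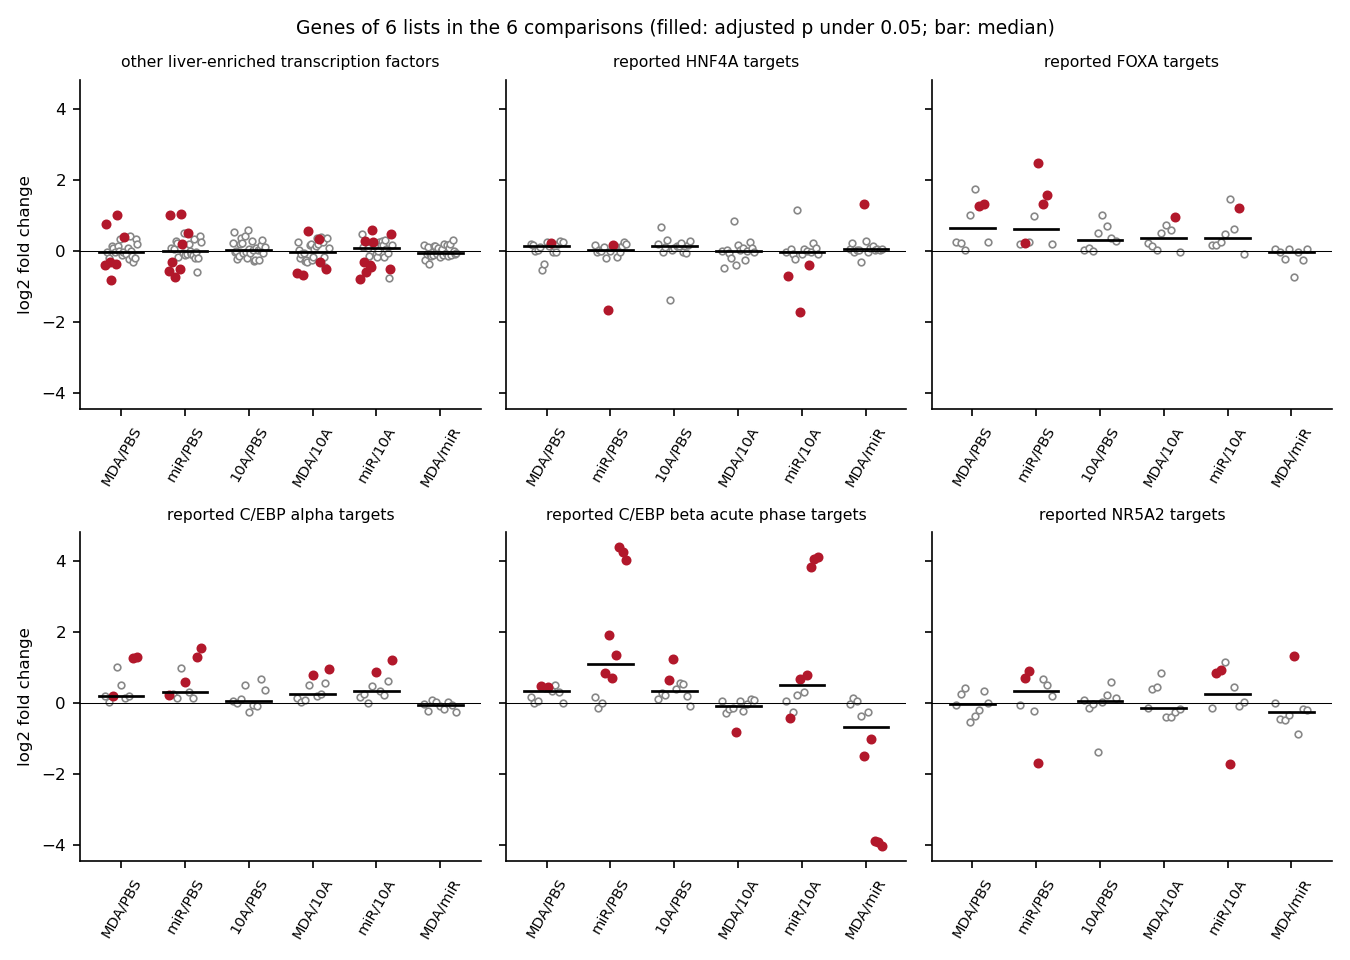
Log2 fold changes of the tested genes of 6 lists in the 6 comparisons (MDA, MDA-MB-231 EV; miR, MCF10A/miR-122 EV; 10A, MCF10A EV), 1 point per gene, filled where the adjusted p was under 0.05, with a bar at the median. The C/EBP beta list has a median of 1.10 with MCF10A/miR-122 EVs over PBS, and the medians of the HNF4A list lie between -0.04 and 0.14, with Cyp8b1 down to -1.71.

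Clock genes, whose RNA depends on the hour of collection, moved between the same groups. Of 12, 2 rose and 2 fell with MDA-MB-231 EVs against PBS and 4 rose and 2 fell with MCF10A/miR-122 EVs, beside 11.7% and 17.9% of all genes passing in either direction. Against MCF10A EVs 8 rose and 2 fell with MDA-MB-231 EVs and 7 rose and 3 fell with MCF10A/miR-122 EVs, beside 7.68% and 16.2% of all genes. Arntl, the core clock activator gene, had a log2 fold change of -2.49 with MDA-MB-231 EVs over MCF10A EVs (adjusted p = 1.88e-04). With MCF10A EVs 3 fell against PBS, beside 1.07% of all genes in either direction, and between MDA-MB-231 EVs and MCF10A/miR-122 EVs none passed. The part of clock phase in the Foxa2, Onecut1, Cebpa and Cebpb results was not tested.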

How the data were processed

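Libraries of liver RNA used the Kapa stranded kit, according to the labels' protocols. The authors deposited raw counts of reads per gene symbol. The submitters' processing notes name bcl2fastq 2.18.0.12, TopHat2 and build mm9 of the mouse genome. For the counting, tool, annotation and strand setting were not given in the sources used here. Rows that share a symbol (27 rows, 0.0744% of counts) were left out.

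Counts were fitted with edgeR 4.0.16 in R 4.3.3 (TMM scaling, filterByExpr, quasi-likelihood test, 24 libraries in 1 fit, 13773 genes, two-sided, Benjamini-Hochberg adjustment, threshold 0.05). The common biological coefficient of variation was 16.8%. The steps were tested on simulated data. DESeq2 1.42.0 and limma 3.58.1 served as alternatives, beside other scaling, filters, a replicate block and identities from library names. Correlations used deviations of log2 CPM (prior count 2) from group means and 100000 permutations within groups.

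Libraries with the same replicate number had correlations of either sign (r between -0.43 and 0.37). In each comparison r was above 0.1 for 1 to 3 of the 6 numbers. The numbers were not taken as pairs in the main fit. Replicates were not repeats of 1 library: chi-square per degree of freedom over genes was 14.1 to 130.6 in 60 pairs. Totals were 21.3 to 33.7 M (mega) counts, and the factors had 98 to 19738 counts per library. Exon lengths and overlaps came from GENCODE M21 and promoter windows from RefSeq (GRCm38.p6), other builds than mm9, so no gene coordinates of the counts are given.

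The factors and gene lists were chosen with earlier results of these data known. Named genes are the 9 factors, the 3 genes of highest r to each (mean log2 CPM not under 3), and up to 4 members of each list with the smallest p among those that passed in a comparison. A few other genes are named for their level, their overlap with a factor or as examples of a list.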

Additional observations from a re-analysis of the deposited data

Results flagged for a closer look

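For each factor and group of 6 libraries, the gap between the highest or lowest library and its nearest neighbour was divided by the range of the group. In 3 of 36 groups it was above Dixon's 95% critical value, which chance passes in about 1 in 20 groups.

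Cebpa in MCF10A/miR-122 EV replicate 4 was at 405.5 CPM, and the next highest library of that group was at 307.8 CPM. Onecut1 in PBS replicate 6 was at 30.0 CPM, and the next highest PBS library was at 11.5 CPM. Prox1 in PBS replicate 5 was at 33.2 CPM, and the next lowest PBS library was at 46.4 CPM.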

How the results depend on the processing

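The 54 log2 fold changes were recomputed under 9 other settings and without each of the 24 libraries. Foxa2 against MCF10A EVs and in MDA-MB-231 EV livers against PBS, and Cebpb with MCF10A/miR-122 EVs against PBS, kept direction and call in all fits that left out a library. Calls against PBS with MCF10A/miR-122 EVs numbered 1 with RLE scaling, without a low-count filter, with the replicate block and with only the groups compared, because Foxa2 was lost. The replicate block gave 4 factors with any difference among groups (Foxa2, Cebpb, Cebpa and Onecut1), and it changed no other call. Without 1 library, calls ranged from 0 to 0 for MCF10A EVs against PBS and for MDA-MB-231 EVs against MCF10A/miR-122 EVs, from 1 to 3 for MDA-MB-231 EVs against PBS, from 1 to 2 for the other 3 comparisons and from 2 to 4 for any difference. Correlated pairs ranged from 0 to 1. Among all genes, MCF10A EVs against PBS gave 147 calls, 400 with DESeq2, 27 with only the groups compared and 26 to 741 without 1 library. MDA-MB-231 EVs against MCF10A/miR-122 EVs gave 35, 99, 23 and 13 to 82.

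Identities from the library names exchange the values of the MDA-MB-231 EV and MCF10A/miR-122 EV groups, so calls and values change name. All log2 fold changes of MDA-MB-231 EVs over MCF10A/miR-122 EVs then turned sign: Hnf4a 0.17, Foxa1 -0.12, Foxa2 0.24, Foxa3 0.11, Cebpa 0.28, Cebpb 0.65, Onecut1 0.74, Nr5a2 0.021 and Prox1 0.19. Against PBS Foxa3 was at 0.085 with MDA-MB-231 EVs and -0.020 with MCF10A/miR-122 EVs. Against MCF10A EVs, MDA-MB-231 EVs gave Hnf4a 0.12, Cebpa 0.039 and Prox1 0.15, and MCF10A/miR-122 EVs gave Hnf4a -0.053, Cebpa -0.24 and Prox1 -0.033. Foxa2 stayed lower and Cebpb higher than with PBS under both identities. Limma-voom turned Onecut1 with MCF10A/miR-122 EVs over PBS to 0.19, and the cause was not tested.

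Leaving out a library turned the sign of 10 results, none past the threshold. Over PBS, MDA-MB-231 EVs ranged from -0.12 to 0.066 for Foxa3 and from -0.11 to 0.022 for Nr5a2. MCF10A/miR-122 EVs ranged from -0.0080 to 0.18 for Foxa3, from -0.086 to 0.063 for Nr5a2 and from -0.28 to 0.52 for Onecut1. Over MCF10A EVs, MDA-MB-231 EVs ranged from -0.14 to 0.021 for Hnf4a, from -0.019 to 0.28 for Cebpb and from -0.14 to 0.042 for Prox1, and MCF10A/miR-122 EVs ranged from -0.046 to 0.096 for Cebpa. Nr5a2 in MDA-MB-231 EVs over MCF10A/miR-122 EVs ranged from -0.10 to 0.048. With 98 counts in its lowest library, Onecut1 had the fewest reads of the factors.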
